A study of Homo sapiens with 24 samples.

Results

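The genes described are those of the cytosolic ribosomal proteins, the proteins that together with ribosomal RNA build the small and large subunits of the ribosome in the cytosol. Members were the gene entries named RPSA, RPLP0, RPLP1, or RPLP2 or carrying an RPS or RPL symbol with a number, without RPS6 kinases and without pseudogene names. This rule found 84 of 26641 genes in the deposited count table, 32 of the small subunit and 52 of the large subunit. Of the 84 genes, 82 passed the low-count filter (all 32 small-subunit and 50 large-subunit genes) among 14739 genes tested. RPL10L and RPL3L, copies known for testis and for heart and skeletal muscle, did not pass it.

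RNA was measured in MB468 cells (MDA-MB-468, a triple-negative breast cancer line that depends on Met) and in MB468res-R8, a single revertant clone selected from it by long culture in Met-Hcy+ medium, which grows on the precursor Hcy in place of Met. Cells of both lines came from Met+ medium, which holds 100 µM Met (called 0 h), or were collected 0.5, 2, or 12 h after transfer to Met-Hcy+ medium, which holds 370 µM DL-homocysteine in place of Met. Each of the 8 groups had 3 libraries. All groups shared a DMEM base with dialyzed serum, vitamin B12, glutamine, and cysteine. No cells kept in Met+ medium for 12 h were analysed here, so time in culture and the change of medium cannot be told apart within a line, and with 1 clone, properties of that clone and Met independence cannot be told apart either. The sources used here do not state whether the 3 libraries came from separate cultures, so p-values measure the spread between these libraries.

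A ribosome needs its proteins in near equal numbers, and their mRNAs are among the most abundant in a growing cell. Most of these mRNAs begin with a C followed by an unbroken run of pyrimidines, the 5′ terminal oligopyrimidine (TOP) motif, through which mTORC1 and the RNA-binding protein LARP1 control their translation and stability. mTORC1 is a kinase complex that responds to amino acids, and the Met derivative S-adenosylmethionine is among the signals known to reach it.

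The first bases of these transcripts are the feature most members have in common. RefSeq start windows (GRCh38.p14) were at hand for 67 members, and each was searched on the transcribed strand, within 10 bases of the annotated start, for a C followed by at least 4 further bases that are each C or T. The run was found in 58 of 67 member windows (86.6%), against 33.5% of 35116 windows of all genes and 34.2% of those of protein-coding genes, and it began exactly at the annotated start in 47. A match describes the letters in the window and is not evidence of use. The windows below hold 10 bases before and 20 bases from the start on, with the run in capitals. RPL3, RPL4, and RPL13A are shown because their levels moved apart most between the lines at 12 h among members with a window, and RPS19 because it was among the members that were lower in MB468res-R8 in Met+ medium.
RPL3 (chr22:39319604-39319633, minus strand): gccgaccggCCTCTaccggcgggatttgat
RPL4 (chr15:66504836-66504865, minus strand): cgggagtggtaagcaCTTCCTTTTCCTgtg
RPL13A (chr19:49487598-49487627, plus strand): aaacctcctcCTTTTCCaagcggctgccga
RPS19 (chr19:41860245-41860274, plus strand): ccccgtcgttCCCTTTCCCCTggctggcag

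A few members are paralogs, second copies of a ribosomal protein gene that encode a near relative of the main form. The pairs RPL22 with RPL22L1 and RPS27 with RPS27L are shown together with RPL7L1, because the values of these paralogs are set beside those of their main forms. RPL22L1 carried a run of 6 bases, where RPL22 and RPS27 had 7 each, and no run was found for RPL7L1 or RPS27L.
RPL22 (chr1:6199576-6199605, minus strand): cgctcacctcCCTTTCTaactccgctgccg
RPL22L1 (chr3:170870176-170870205, minus strand): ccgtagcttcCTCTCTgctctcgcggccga
RPS27 (chr1:153990752-153990781, plus strand): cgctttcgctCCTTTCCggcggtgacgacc
RPS27L (chr15:63157458-63157487, minus strand): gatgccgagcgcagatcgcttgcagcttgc
RPL7L1 (chr6:42879606-42879635, plus strand): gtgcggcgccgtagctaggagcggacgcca

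Libraries held 11745047 to 36495328 counts with a median of 20502897, of which 0.201 to 0.303% lay on added spike-in RNAs. Levels are given as CPM, counts scaled to a common total with the TMM library size. The epithelial markers EPCAM, CDH1, KRT8, KRT18, KRT19, KRT5, and KRT17 lay between 258 and 2804 CPM in every library, and the blood markers PTPRC and CD3E stayed at or below 0.197 CPM. The fibroblast markers COL1A2 and DCN stayed at or below 0.108 CPM, and COL1A1 lay between 14.4 and 73.0 CPM. MB468 at 2 h replicate 2 stood apart with 8251 counts of RN7SK, an RNA without a poly(A) tail, against 44 to 357 in the other libraries. In that library 3.49% of gene counts came from the ribosomal protein genes, the lowest of its group, and without it 5 members in place of 4 were called in MB468 at 2 h, with a median log2 fold change of 0.049, and none for the line difference at 2 h.

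The 84 genes took 3.34 ± 0.313% (SD over 24 libraries) of all gene counts, and this share moved only at 12 h. In MB468 it was 3.65, 3.72, and 3.69% at 0 h, between 3.65 and 3.75% at 0.5 h, and between 3.49 and 3.82% at 2 h. At 12 h it was 2.80, 2.85, and 2.83%, below every earlier library of this line. In MB468res-R8 the share was 3.17, 3.11, and 3.12% at 0 h, below all MB468 libraries of 0 h, and 3.34, 3.44, and 3.37% at 12 h, above all libraries of this line from 0 to 2 h. In bulk RNA, fewer cells that carry an mRNA and less of it per cell cannot be told apart. The small-subunit share fell in MB468 from 1.31 ± 0.0173 to 1.06 ± 0.0104% (SD, n = 3) between 0 and 12 h and the large-subunit share from 2.38 ± 0.0213 to 1.77 ± 0.0131%. In MB468res-R8 the small-subunit share went from 1.06 ± 0.0123 to 1.15 ± 0.0224% and the large-subunit share from 2.08 ± 0.0170 to 2.23 ± 0.0253%. The share of the mitochondrial ribosomal protein genes, which serve the separate ribosome of mitochondria, went from 0.495 ± 0.00460 to 0.595 ± 0.00562% in MB468, and MB468res-R8 had 0.495 ± 0.00686 at 0 h and 0.592 ± 0.00345% at 12 h.

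**Figure D1:**
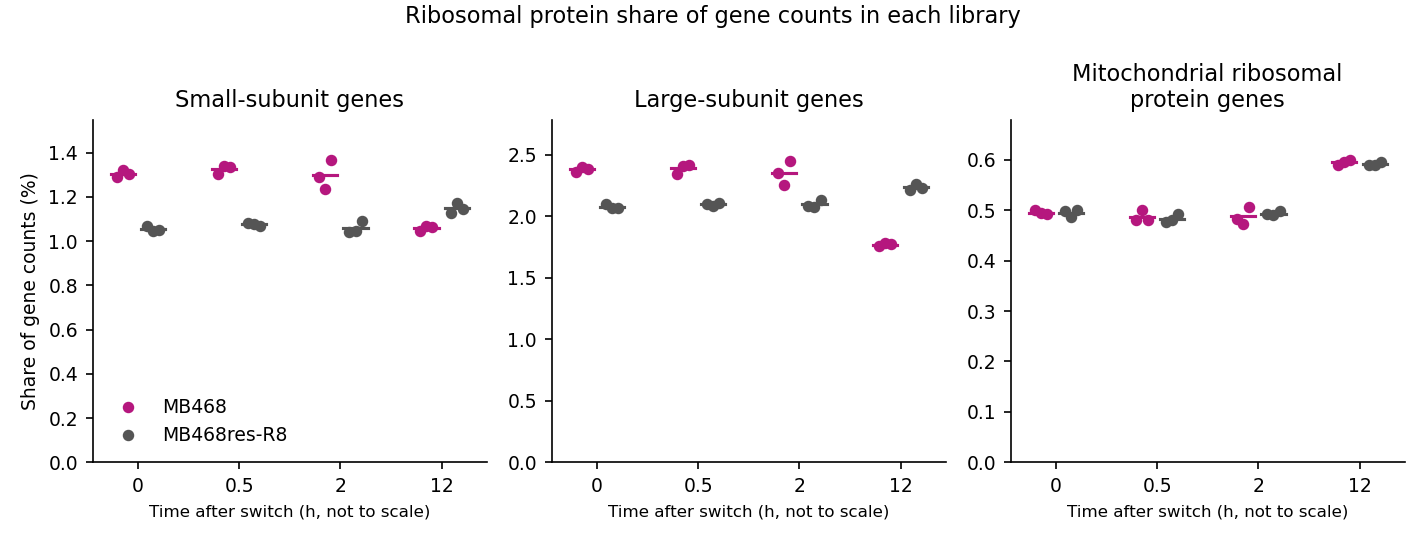
Share of all gene counts (%, y axis) taken by small-subunit, large-subunit, and mitochondrial ribosomal protein genes at each time (x axis, h, not to scale), with a point for each of the 24 libraries and a bar for the group mean. The cytosolic shares of MB468 at 12 h lie below all its earlier libraries, those of MB468res-R8 at 12 h lie above all its earlier libraries, and the mitochondrial share is higher at 12 h in both lines.

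Mean levels of the members ran from 0 to 1772 CPM with a median of 326 CPM, and 70 members had at least 100 CPM. Divided by the length of the canonical GENCODE transcript, levels had a median of 346 CPM per kb and were highest for RPL8, a core protein of the large subunit, at 1656 CPM per kb. RPLP0, the base of the ribosomal stalk that recruits translation factors, had 1011 CPM per kb, RPL3, which lies near the peptidyl transferase center, 951 CPM per kb, and RPS6, the substrate of the S6 kinases, 834 CPM per kb. These values per length are low for members whose canonical transcript is long, such as RPL37 with 7573 bases. The 84 genes lie on 21 chromosomes and mostly have few exons, with a median of 5. For 60 members, stretches of 100 bases, the read length, also occur elsewhere in the genome, and for 12 members that was true of 50% or more of the transcript.

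Some members were counted at a level that cannot describe the gene. RPS9, RPS18, and RPL36A, core members in every cell, had 0.489, 1.32, and 1.53 CPM on average. For RPS9 48.4% of its 100-base stretches lie also on alternate contigs of the assembly, and for RPL36A 45.3% occur elsewhere, while RPL21, at 204 CPM, had a copy of every stretch. RPS10 and RPL17 (15.7 and 16.9 CPM) overlap entries for read-through transcripts, and so does RPL36A. Whether the counting left out reads of these genes was not tested. RPL3L, not tested, had 40, 6, and 23 counts in MB468 at 12 h and 0 to 5 in the other 21 libraries, and RPL10L had 0 counts everywhere.

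In Met+ medium (0 h), ribosomal protein mRNAs were lower in MB468res-R8 than in MB468. Of the 82 tested genes 62 were lower, 3 were higher, and 17 were not called (edgeR's quasi-likelihood test, Benjamini-Hochberg adjusted p under 0.05 over all genes), where 53.6% of all genes were called (25.3% higher and 28.3% lower). The median log2 difference was -0.27 for the small subunit, with 24 genes lower and none higher, and -0.25 for the large subunit, with 38 lower and 3 higher, while the median of all genes was -0.01. The libraries of the 2 lines did not overlap for 72 of the 82 genes, 68 of them below and 4 above in MB468res-R8, where 31.6% of all tested genes lay below and 28.4% above. When libraries were scaled on the spike-ins the median of all genes moved to -0.31 and that of the members to -0.55, which left the members 0.24 lower than all genes under both scalings. Other library sizes shift all genes of a comparison by nearly the same amount. This distance could therefore hardly change and is no separate check. With this scaling 1 member was higher and 73 were lower, and the higher share of all calls went from 47.2 to 14.97%.

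The lowest members at 0 h belonged to the small subunit. RPS19, which matures the 3′ end of the small-subunit RNA and is mutated in Diamond-Blackfan anemia, had 502, 513, and 514 CPM in MB468 and 338, 335, and 329 CPM in MB468res-R8. The groups did not overlap (log2 difference -0.61 ± 0.042 SE, adjusted p = 7.95e-16 in edgeR's quasi-likelihood test). RPS27, a zinc-binding protein of the small subunit, had 379, 406, and 400 CPM against 253, 242, and 259 CPM (log2 difference -0.65, adjusted p = 1.56e-15). RPS21 and RPS16 were lower by log2 differences of -0.63 and -0.50. RPS18 was lower by -0.80 at under 2 CPM, a call that was lost without MB468 replicate 2 or MB468res-R8 replicate 3 (adjusted p = 0.0591 and 0.0664).

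Of the 3 members that were higher in MB468res-R8 at 0 h, RPL39L stood out. RPL39L, a paralog of RPL39 known from testis and tumors, had 29.3, 28.8, and 30.2 CPM in MB468 and 43.95, 46.6, and 44.8 CPM in MB468res-R8, with no overlap (log2 difference 0.62 ± 0.062 SE, adjusted p = 3.44e-11 in edgeR's test). RPL39 itself, which lines the exit tunnel, was lower, at 90.02, 74.2, and 85.1 CPM against 107, 111, and 112 CPM (log2 difference -0.40, adjusted p = 0.00194). RPL22 and RPL8 were higher by 0.22 and 0.13 with TMM scaling, but these differences turned to -0.08 and -0.17 with spike-in scaling.

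At 0.5 and 2 h of Met-Hcy+ medium few members moved. In MB468 at 0.5 h 1 member rose and 3 fell, where 34.1% of all genes were called (16.3% higher and 17.8% lower), and in MB468res-R8 at 0.5 h 1 rose and 3 fell, where 33.7% of all genes were called (17.4% higher and 16.2% lower). At 2 h 3 rose and 1 fell in MB468, where 16.5% of all genes were called (8.5% higher and 7.95% lower), and 2 rose in MB468res-R8, where 4.34% were called (2.46% higher and 1.87% lower). The test of the line difference called 1 member higher at 0.5 h, where 3.01% of all genes were called (1.48% higher and 1.53% lower), and 1 member lower at 2 h, where 5.09% were called (2.25% higher and 2.84% lower), and both calls were of RPL26L1. The call at 0.5 h was lost under most alternatives, several of which called RPS15 lower in its place. The medians of the small and large subunit were -0.03 and -0.02 in MB468 at 0.5 h, 0.02 and 0.01 at 2 h, 0.02 and 0.00 in MB468res-R8 at 0.5 h, and 0.02 and 0.03 at 2 h. With spike-in totals as library sizes, the median of all genes in MB468 moved to -0.20 at 0.5 h and -0.42 at 2 h, and the members moved with it, to -0.22 and -0.40, so that 75 members were called lower at 2 h. Relative to all genes the members' median in MB468 lay within 0.02 of 0 under both scalings at these times, a distance that the scaling can hardly alter. The higher share of all calls in MB468 went with this scaling from 47.7 to 13.96% at 0.5 h and from 51.7 to 2.52% at 2 h.

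**Figure D2:**
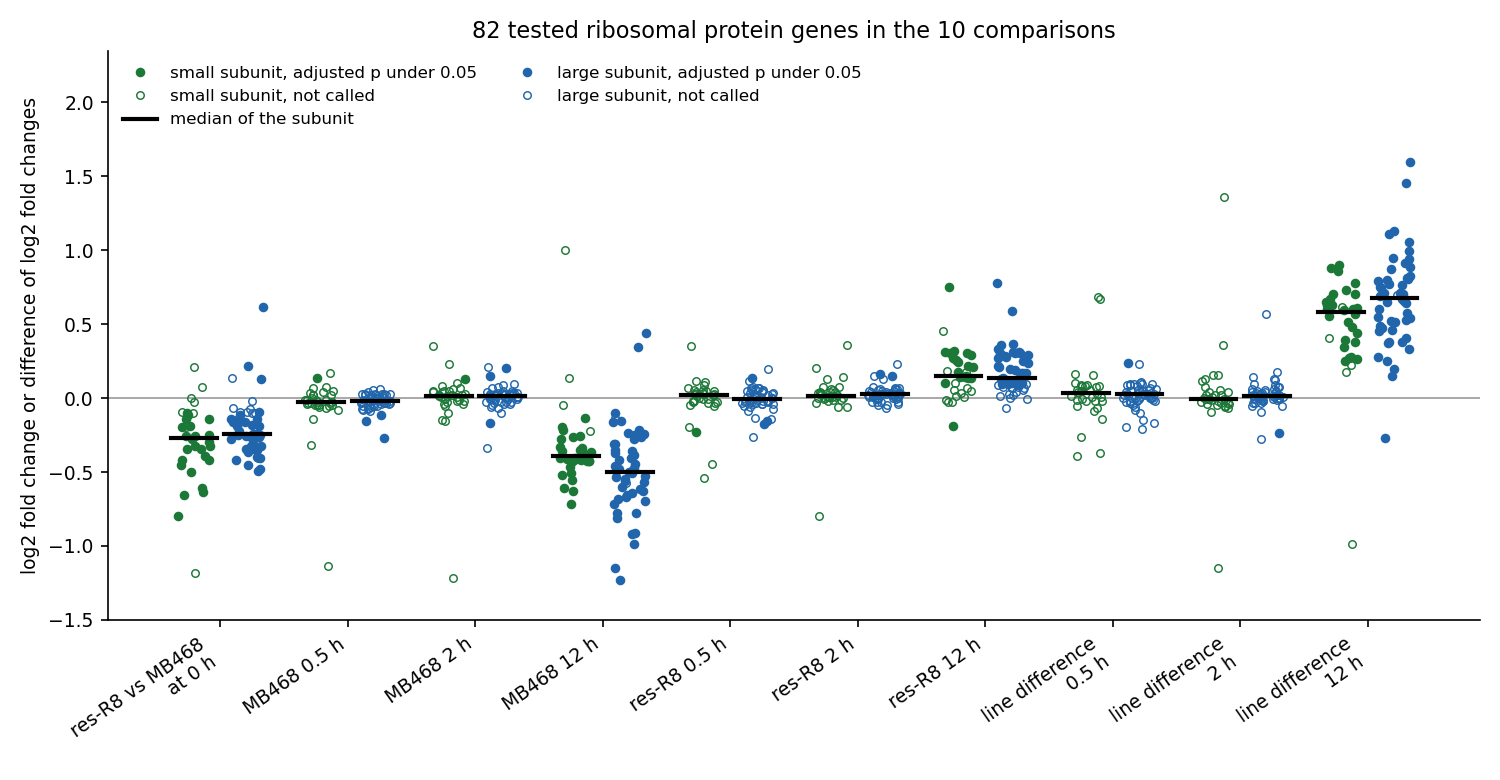
log2 fold change, or difference of log2 fold changes between the lines (y axis), of the 32 small-subunit (green) and 50 large-subunit (blue) genes in each of the 10 comparisons (x axis), with filled points for genes called at an adjusted p under 0.05 and a black bar for the median of the subunit. Medians lie near 0 at 0.5 and 2 h with TMM scaling, and at 12 h they lie at -0.39 and -0.50 in MB468, at 0.15 and 0.13 in MB468res-R8, and at 0.58 and 0.68 for the line difference.

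RPL26L1, a paralog of RPL26, had 68.1, 68.5, and 63.8 CPM in MB468 at 0 h and 57.2, 54.2, and 55.1 CPM at 0.5 h, below all libraries of 0 h (log2 fold change -0.27 ± 0.050 SE, adjusted p = 3.44e-05 in edgeR's test). At 2 h it had 75.2, 78.6, and 77.5 CPM, above all libraries of 0 h (0.20 with TMM scaling, adjusted p = 0.00246, but -0.21 with spike-in scaling). RPL7L1, a paralog of RPL7 that works in ribosome assembly, fell by 0.15 in MB468 and by 0.17 in MB468res-R8 at 0.5 h and by 0.17 in MB468 at 2 h on the log2 scale. RPL11, which joins the large subunit with 5S RNA and RPL5 and can bind the p53 regulator MDM2, rose at 2 h by 0.15 in both lines with TMM scaling (adjusted p = 0.00747 and 0.0188), and in MB468 its value was -0.27 with spike-in scaling. RPL22 rose in MB468res-R8 by 0.13 at 0.5 h and 0.16 at 2 h. RPS25 rose in MB468 at 0.5 h by 0.14 and RPS29 at 2 h by 0.13 with TMM scaling, and their values with spike-in scaling were -0.06 and -0.29. RPL10 fell by 0.12 in MB468 at 0.5 h, and RPS15 and RPL28 fell by 0.23 and 0.15 in MB468res-R8 at 0.5 h.

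Several of these early calls were lost when 1 library was left out. In MB468 at 0.5 h the number of members called went from 4 to 2 without 0 h replicate 2 or 0.5 h replicate 1. RPL10 was not called without 0 h replicate 2, 0 h replicate 3, or 0.5 h replicate 1 (adjusted p from 0.0565 to 0.0718), and RPS25 was not called without replicate 1 of either time (0.0529 and 0.0659). RPL7L1 lost the call in MB468 without 0 h replicate 2 or 0.5 h replicate 3 at 0.5 h, and without 0 h replicate 2 or 2 h replicate 1 at 2 h (adjusted p from 0.0504 to 0.099). RPS29 lost it without 0 h replicate 1 or 3 or 2 h replicate 1 or 3 (from 0.105 to 0.173). In MB468res-R8, the 2 calls at 2 h went to 0 without 0 h replicate 1 or 2 h replicate 3 and to 1 without 0 h replicate 3 or 2 h replicate 1 or 2. There RPL22 lost the call at 0.5 h without 0 h replicate 1 or 3 or 0.5 h replicate 2 (from 0.0916 to 0.189) and at 2 h without any library but 0 h replicate 2 (from 0.0535 to 0.29). RPL11 lost it without 0 h replicate 1 or 3 or 2 h replicate 3 (from 0.0828 to 0.209). The fall of RPL26L1 at 0.5 h and the rise of RPL11 at 2 h in MB468 held without each library in turn.

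At 12 h in Met-Hcy+ medium nearly all ribosomal protein mRNAs of MB468 were lower than at 0 h. Of the 82 tested genes 73 fell, 2 rose, and 7 were not called, where 70.6% of all genes were called (34.6% higher and 36% lower). The small subunit had a median log2 fold change of -0.39 (27 fell, none rose) and the large subunit of -0.50 (46 fell, 2 rose), while the median of all genes was -0.02. The libraries of 12 h lay below all libraries of 0 h for 73 members and above them for 3, where 37.8% of all tested genes lay below and 37.2% above. Among the genes not called, RPS9, RPS18, and RPL36A had under 10 CPM, RPS10 had 15.7 CPM, and RPL22L1 and RPS27L are paralogs. With spike-in scaling 75 members fell and none rose, the median of all genes was -0.23 and that of the members -0.63, and the higher share of all calls went from 49.0 to 30.0%.

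The members with the largest falls in MB468 all belonged to the large subunit. RPL7 had 390, 403, and 383 CPM at 0 h, 378 to 422 CPM in the libraries of 0.5 and 2 h, and 163, 174, and 165 CPM at 12 h. It fell to 0.427 of its level at 0 h (log2 fold change -1.23 ± 0.044 SE, adjusted p = 3.95e-25 in edgeR's quasi-likelihood test). For RPL7 59.9% of the 100-base stretches occur elsewhere in the genome, so its counts may hold reads of its copies or miss some of its own. RPL5 (chromosome 1, 92832013 to 92841924), the partner of RPL11 on 5S RNA, had 565, 573, and 560 CPM at 0 h and 257, 259, and 251 CPM at 12 h. This was a log2 fold change of -1.15 ± 0.039 SE (adjusted p = 7.53e-26), and the groups did not overlap. RPL13A (chromosome 19, 49487510 to 49493057), also known from a complex that silences inflammatory mRNAs, went from 1333, 1356, and 1365 CPM to 660, 686, and 703 CPM (-0.98). RPL3 (chromosome 22, 39312882 to 39320389) went from 1327, 1338, and 1360 CPM to 720, 721, and 684 CPM (-0.92), and RPL4 (chromosome 15, 66498015 to 66524532), whose long loop reaches the exit tunnel, from 1355, 1386, and 1368 CPM to 708, 744, and 733 CPM (-0.91). All 5 genes had libraries at 12 h that lay far below those of every earlier time. RPL8, the member with the highest level, fell by only 0.16, from 1708, 1690, and 1686 CPM to 1514, 1490, and 1552 CPM (adjusted p = 0.00024).

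In MB468res-R8 the same time in Met-Hcy+ medium came with small rises. Of the 82 genes 52 rose, 1 fell, and 29 were not called, where 61.7% of all genes were called (32% higher and 29.7% lower). The median log2 fold change was 0.15 for the small subunit (18 rose, 1 fell) and 0.13 for the large subunit (34 rose, none fell), while the median of all genes was 0.00. Libraries of 12 h lay above all libraries of 0 h for 55 members and below them for 1, where 33.4% of all tested genes lay above and 31.2% below. Spike-in scaling gave medians of 0.15 for the members and 0.00 for all genes, but only 16 members were then called, all of them higher. The number called was between 38 and 47 when each library was left out in turn, in each case below the number called with all libraries.

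The largest rises in MB468res-R8 were those of 2 paralogs and a gene with few counts. RPL22L1 had 18.2, 16.8, and 18.2 CPM at 0 h and 28.8, 32.2, and 30.4 CPM at 12 h, above all earlier libraries of this line, a rise to 1.71 times its level (log2 fold change 0.78 ± 0.105 SE, adjusted p = 1.65e-07 in edgeR's test). RPL7L1 went from 94.7, 86.0, and 97.3 CPM to 141, 136, and 141 CPM (0.59, adjusted p = 5.07e-14). RPS10, a small-subunit protein at the mRNA entry side, had 11.3, 10.5, and 19.6 CPM at 0 h and 23.1, 23.1, and 22.5 CPM at 12 h (0.75, adjusted p = 0.00205), at a level far below that of most members. RPL7 and RPL34 followed with 0.37 and 0.36, and RPL34 went from 66.6, 58.9, and 62.8 CPM to 78.1, 80.7, and 83.5 CPM (adjusted p = 3.42e-06). The 1 member that fell was RPS28, which lies at the mRNA exit side, from 120, 119, and 108 CPM to 98.2, 104, and 103 CPM (-0.19, adjusted p = 0.00617). RPS28 fell in MB468 too, from 119, 126, and 139 CPM to 100, 98.0, and 99.2 CPM (-0.36), and its difference between the lines was not called (0.18, adjusted p = 0.0713).

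The test of the line difference compares the 12 h change of MB468res-R8 with that of MB468. It was positive, that is, the level moved higher in MB468res-R8, for 75 members and negative for 1, with 6 not called, where 56.8% of all genes were called (28.7% higher and 28.2% lower). The median difference was 0.58 for the small subunit (27 higher, none lower) and 0.68 for the large subunit (48 higher, 1 lower), against -0.01 for all genes. For 49 members a fall in MB468 and a rise in MB468res-R8 were both called together with the difference, and 23 more fell in MB468, were not called in MB468res-R8, and had a called difference. With spike-in scaling 74 members were higher and none lower, the median of all genes was 0.20 and that of the members 0.82, and the higher share of all calls went from 50.4 to 69.9%. Relative to all genes the median of the members was 0.62 under both scalings, a distance that the scaling can hardly alter.

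RPL7, RPL5, RPL4, RPL13A, and RPL3 led the line difference as they led the fall in MB468. In MB468res-R8 RPL7 went from 337, 315, and 331 CPM to 402, 443, and 423 CPM, so that it was below MB468 at 0 h and above it at 12 h (difference 1.60 ± 0.062 SE, adjusted p = 4e-23 in edgeR's test). RPL5 crossed in the same way, from 492, 462, and 475 CPM to 574, 612, and 585 CPM (difference 1.46 ± 0.055 SE, adjusted p = 1.67e-23). RPL4 went from 1250, 1213, and 1229 CPM to 1434, 1436, and 1421 CPM (difference 1.13). At 12 h the libraries of the 2 lines were apart for these genes by more than the spread within any group. RPL13A and RPL3 rose in MB468res-R8 by 0.13 and 0.14, from 982, 983, and 1005 CPM to 1089, 1094, and 1065 CPM and from 1307, 1202, and 1255 CPM to 1384, 1414, and 1339 CPM (differences 1.11 and 1.06). The rise of RPL3 was not called without 0 h replicate 2 of MB468res-R8 (0.08, adjusted p = 0.0751).

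**Figure D3:**
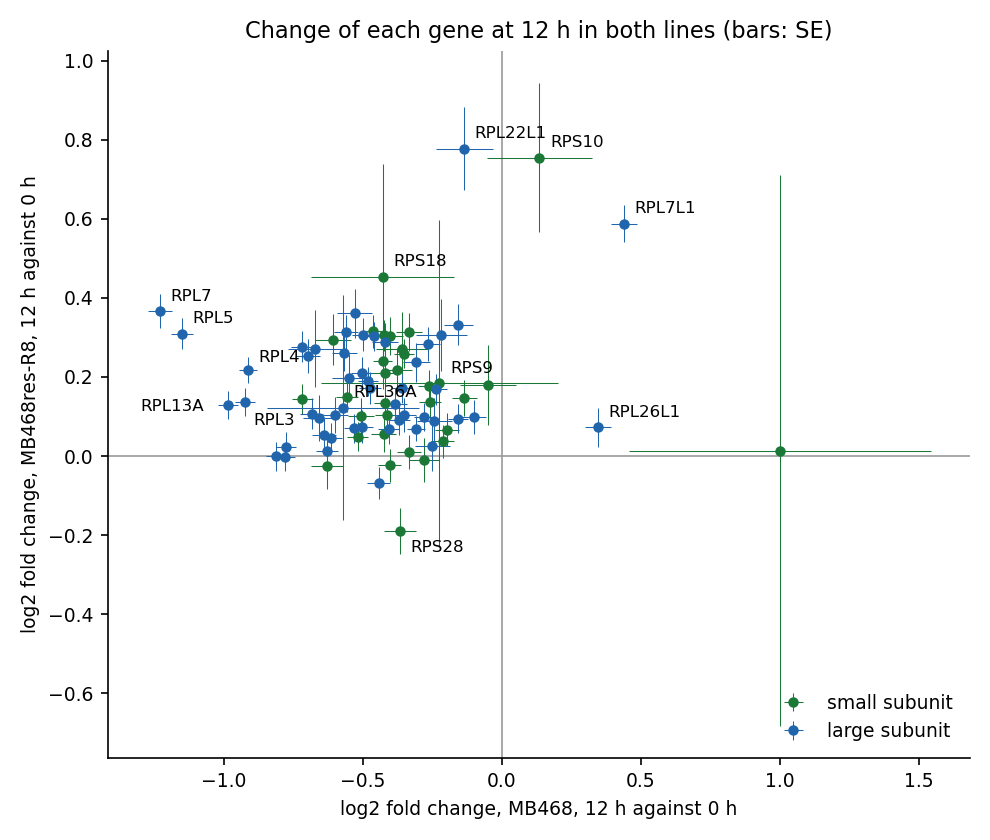
log2 fold change at 12 h against 0 h in MB468 (x axis) and in MB468res-R8 (y axis) for the 82 tested genes, green for the small and blue for the large subunit, with bars for the SE of each fold change. Most genes lie left of 0 and at or above 0, RPL7 and RPL5 lie farthest left at -1.23 and -1.15, and RPL7L1 at 0.44 and 0.59 lies to the right and above.

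Members of known assemblies were set side by side. RPL5 and RPL11, which enter the large subunit as one particle with 5S RNA, fell by 1.15 and 0.50 on the log2 scale in MB468 at 12 h and both rose by 0.31 in MB468res-R8. RPL11 had 932, 936, and 903 CPM at 0 h and 628, 650, and 683 CPM at 12 h in MB468, and 729, 778, and 705 CPM and 897, 928, and 912 CPM in MB468res-R8. The stalk proteins RPLP0, RPLP1, and RPLP2 fell by 0.31, 0.28, and 0.35 on the log2 scale in MB468, less than the large-subunit median. RPLP0 had 1279, 1310, and 1285 CPM at 0 h and 1028, 1046, and 1053 CPM at 12 h in MB468, and its change in MB468res-R8 was not called (0.07, adjusted p = 0.0638). RPLP1 and RPLP2 rose there by 0.10 each, calls that were lost without any 1 library for RPLP1 (adjusted p from 0.0611 to 0.22) and without replicate 2 or 3 of either time for RPLP2 (from 0.205 to 0.317). Of the small subunit, RPSA, also known as the laminin receptor, fell by 0.35 in MB468, from 765, 797, and 780 CPM to 595, 620, and 623 CPM, and rose by 0.26 in MB468res-R8, from 599, 553, and 561 CPM to 680, 700, and 670 CPM. RPS6 fell by 0.43, from 1229, 1239, and 1260 CPM to 900, 935, and 937 CPM, and rose by 0.24, from 1040, 1039, and 1048 CPM to 1205, 1266, and 1226 CPM. The libraries of 0 and 12 h did not overlap for RPSA and RPS6 in either line.

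The values of the 5 tested paralogs are given beside those of their main forms, and the differences within pairs were not tested. At 12 h their median was -0.05 in MB468, where 2 rose and 1 fell, and 0.18 in MB468res-R8, where 2 rose. Of all genes 34.6% rose and 36% fell in MB468 at 12 h, and 32% rose and 29.7% fell in MB468res-R8. RPL7L1 rose in MB468 from 112, 117, and 109 CPM to 155, 159, and 146 CPM (0.44 ± 0.045 SE, adjusted p = 3.21e-11 in edgeR's test), while RPL7 fell by 1.23 on the log2 scale. RPL26L1 rose there from 63.8 to 68.5 CPM at 0 h to 84.1 to 86.1 CPM at 12 h (0.35, adjusted p = 2.65e-08), while RPL26 fell from 361, 387, and 368 CPM to 250, 252, and 256.1 CPM (-0.56). With spike-in scaling the rises of RPL7L1 and RPL26L1 in MB468 kept their sign and were not called (0.24 and 0.14, adjusted p = 0.108 and 0.383). In MB468res-R8 RPL26L1 was at 64.5, 64.6, and 62.1 CPM at 12 h (0.07, not called), and RPL26 rose from 293, 309, and 295 CPM to 357, 384, and 373 CPM (0.31). RPL26L1 was thus the member with a called negative line difference at 12 h (-0.27 ± 0.068 SE, adjusted p = 0.000721), which was not called with spike-in scaling (-0.06, adjusted p = 0.826).

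RPL22L1 had 21.4, 24.3, and 22.7 CPM in MB468 at 0 h and 21.5, 22.8, and 18.4 CPM at 12 h (-0.13, not called), where RPL22 fell from 394, 413, and 419 CPM to 332, 320, and 336 CPM (-0.31), and the line difference of RPL22L1 was 0.91 ± 0.147 SE (adjusted p = 3.67e-06). RPS27L, known as a p53 target, stayed between 10.6 and 17.5 CPM in all libraries and was called in no comparison, where RPS27 fell in MB468 from 379, 406, and 400 CPM to 298, 297, and 288 CPM (-0.42). RPL39L fell in MB468 by 0.24, from 28.8 to 30.2 CPM at 0 h to 26.1, 23.7, and 24.5 CPM at 12 h (adjusted p = 0.000802), and RPL39 fell by 0.67, from 107, 111, and 112 CPM to 68.9, 75.6, and 63.4 CPM. In MB468res-R8 RPL39 rose to 95.5, 107, and 99.2 CPM (0.27), a call that was lost without replicate 2 or 3 of either time (adjusted p from 0.0587 to 0.169).

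**Figure D4:**
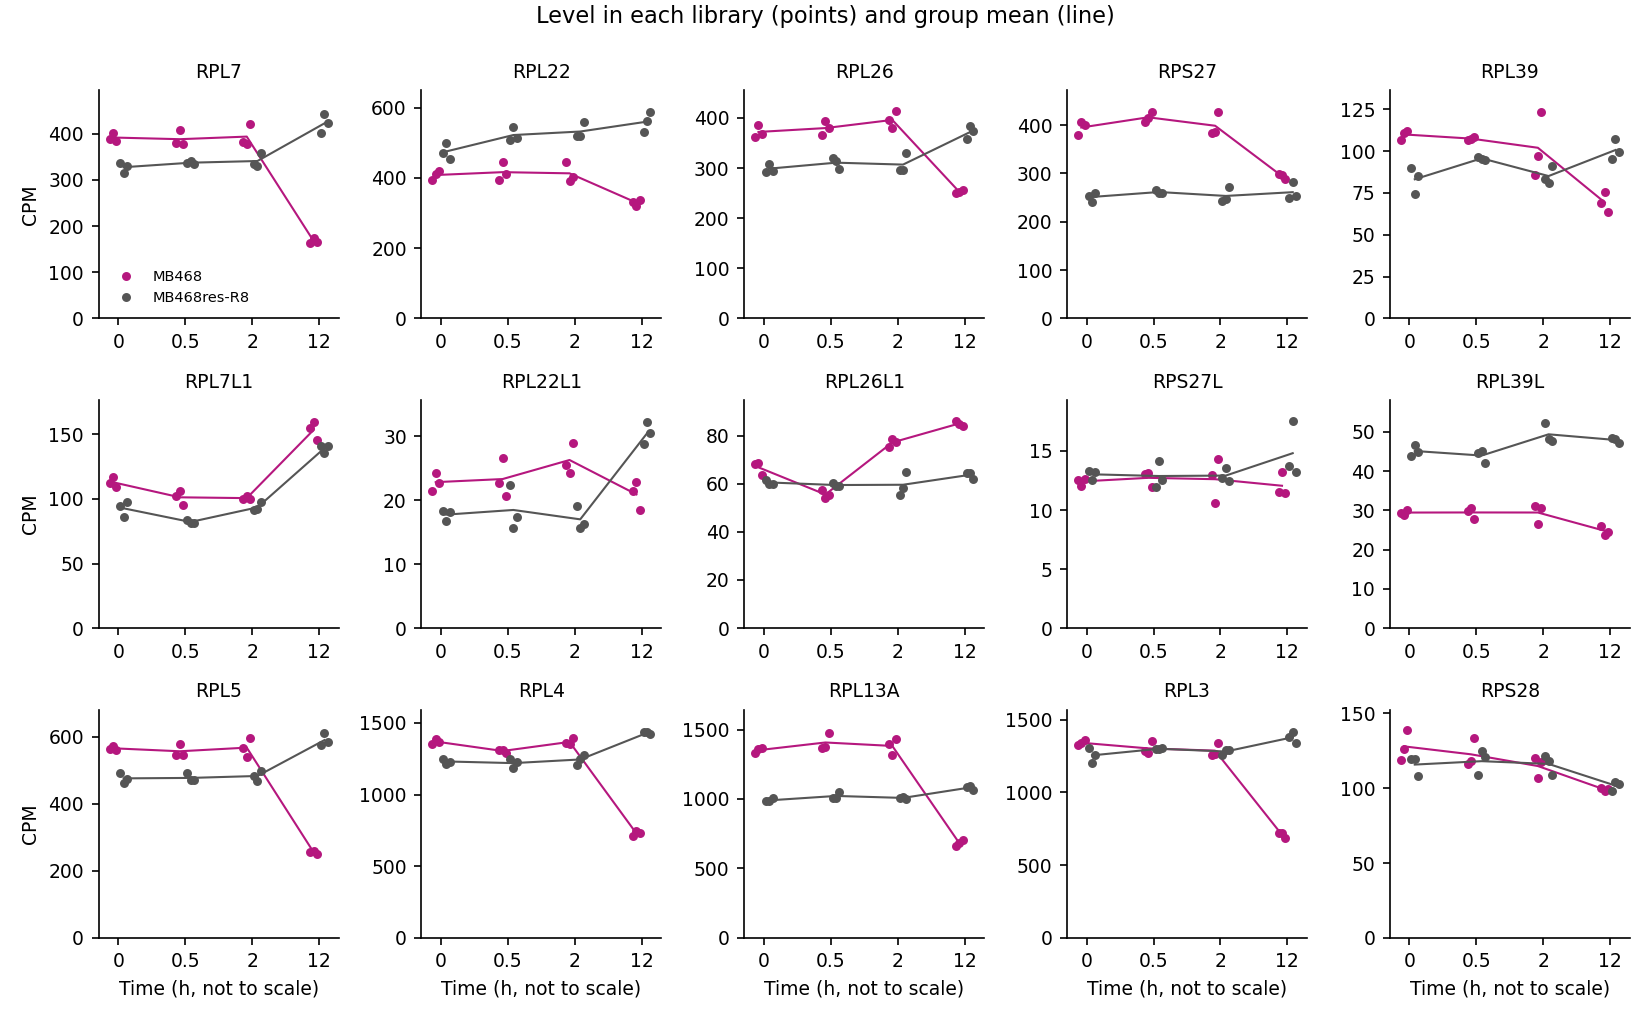
Level (CPM, y axis) of 15 genes at each time (x axis, h, not to scale) in MB468 (magenta) and MB468res-R8 (gray), with a point for each library and a line through the group means. The upper row shows main forms, the middle row their paralogs, and the lower row RPL5, RPL4, RPL13A, RPL3, and RPS28, and RPL7, RPL5, RPL4, RPL13A, and RPL3 of MB468 drop at 12 h below all other libraries while RPL7L1 rises in both lines.

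Features of the genes were set beside these values as a description. In MB468 at 12 h 53 of the 58 members with a pyrimidine run fell and none rose (median -0.42), and of the 8 tested members without one 5 fell and 2 rose (median -0.18). In MB468res-R8 at 12 h 38 of the 58 rose and 1 fell (median 0.17), and of the 8 without it 6 rose (median 0.16). Over all genes tested, 34.6% were called higher and 36% lower in MB468 at that time, and 32% and 29.7% in MB468res-R8. The 8 include the paralogs RPL7L1 and RPL26L1, which were the 2 rises in MB468, and RPS27L. For RPL26L1, RPL6, and RPS29 the window lay 544, 320, and 12330 bases from the start of the canonical transcript, and that start was not searched. Among members with small nucleolar RNAs in their introns, short RNAs that guide rRNA modification, 28 of 28 fell in MB468 (median -0.49), against 45 of the 54 tested others (median -0.40). Members with under 1% of copied stretches had the same median in MB468 at 12 h, -0.42, as those with 1 to under 50%, and those with 50% or more had -0.45. The 70 members with at least 100 CPM had 69 falls and 1 rise in MB468 and 47 rises and 1 fall in MB468res-R8. Across 78 members with at least 10 CPM, Spearman's rho of the change in MB468 at 12 h with mean CPM was -0.30 and with transcript length -0.08, over genes that share libraries and are not independent replicates. Without paralogs and members under 10 CPM, 72 of 73 members fell in MB468, and none rose.

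Other genes of translation were taken from fixed lists. Among all genes tested, 34.6% rose and 36% fell in MB468 at 12 h, and 32% rose and 29.7% fell in MB468res-R8. The line difference at 12 h was positive for 28.7% and negative for 28.2% of all genes. Of ribosomal proteins outside the naming rule, RPL36AL, FAU, and RACK1 (listed as GNB2L1) fell in MB468 at 12 h by 0.55, 0.49, and 0.32 on the log2 scale. In MB468res-R8 their values were 0.13, 0.05, and 0.18, and the line differences of all 3, 0.68, 0.54, and 0.50, were called. Of 30 tested translation factors (elongation factors, subunits of eIF3 and eIF4, and poly(A)-binding proteins, together with TPT1 and NAP1L1, which also carry TOP mRNAs), 22 fell and 2 rose in MB468 (median -0.39), 23 rose and 1 fell in MB468res-R8 (median 0.31), and 29 had a positive line difference (median 0.66). EIF3E, a subunit of the initiation factor that prepares the 40S subunit, fell by 1.14 in MB468 and rose by 0.57 in MB468res-R8 on the log2 scale. EEF2, which moves the ribosome along the mRNA, and EEF1A1, which brings the aminoacyl-tRNA, fell in MB468 by 0.68 and 0.67 and rose in MB468res-R8 by 0.13 and 0.10.

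Genes that make ribosomes had medians above 0 at 12 h in both lines. Of 66 ribosome biogenesis genes 47 rose and 9 fell in MB468 at 12 h (median 0.21), and 61 rose and 1 fell in MB468res-R8 (median 0.60), with 46 positive and 8 negative line differences (median 0.32). Shares of all genes called at 12 h were 34.6% higher and 36% lower in MB468 and 32% and 29.7% in MB468res-R8. For the line difference they were 28.7% and 28.2%. NPM1, an abundant nucleolar chaperone, fell by 0.64 in MB468 and rose by 0.88 in MB468res-R8 on the log2 scale, and NOP2, which methylates the large-subunit RNA, rose by 1.31 and 0.71. At 0.5 h, when the ribosomal protein genes had medians near 0, 53 of the 66 biogenesis genes fell in MB468 (median -0.31) and 49 in MB468res-R8 (median -0.23). Of all genes 17.8% were called lower in MB468 and 16.2% in MB468res-R8 at that time. Of 14 listed chaperones and importers of ribosomal proteins, not all specific to these, 5 rose and 5 fell in MB468 at 12 h (median -0.03). In MB468res-R8 14 rose at 12 h (median 0.48). RRS1, which helps load RPL5 and RPL11, had 1.16 in MB468 and 0.63 in MB468res-R8.

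Mitochondrial ribosomal proteins and regulators of TOP mRNAs also had medians above 0 at 12 h in both lines. Of 76 mitochondrial ribosomal protein genes 39 rose and 19 fell in MB468 at 12 h (median 0.11) and 53 rose and 3 fell in MB468res-R8 (median 0.28), and their median line difference was 0.08. Of 19 regulators of TOP mRNAs 9 rose and 4 fell in MB468 (median 0.12) and 10 rose and 5 fell in MB468res-R8 (median 0.26). Their line difference was positive for 5, negative for 5, and not called for 9 (median -0.08). Among all genes 34.6% rose and 36% fell in MB468 at 12 h, and 32% rose and 29.7% fell in MB468res-R8. The line difference was positive for 28.7% and negative for 28.2% of all genes. LARP1, which binds the TOP motif, had 0.59 in MB468 and 0.33 in MB468res-R8, and MYC, a transcription factor that drives ribosome synthesis, had 1.35 and 1.42 at 0.5 h and 0.35 and -0.25 at 12 h.

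**Figure D5:**
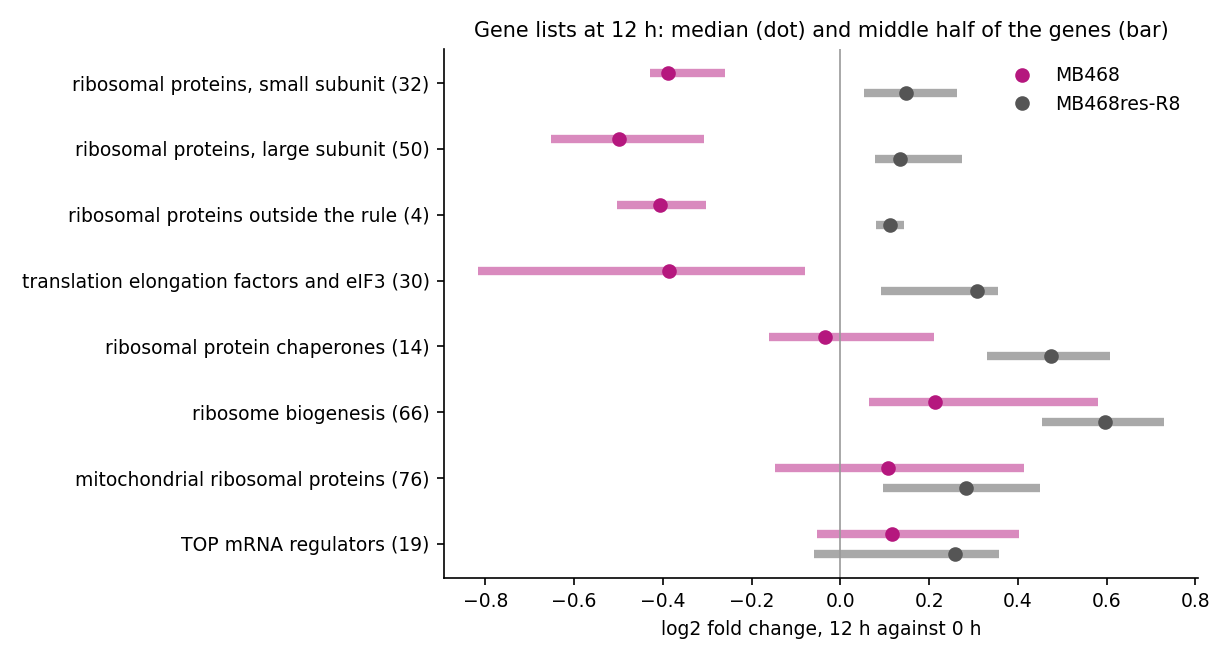
log2 fold change at 12 h against 0 h (x axis) of 8 gene lists (y axis, number of tested genes in parentheses) in MB468 (magenta) and MB468res-R8 (gray), with a dot for the median and a bar from the lower to the upper quartile of the genes. In MB468 both ribosomal subunits and the translation factors lie below 0 (-0.39, -0.50, and -0.39) and ribosome biogenesis above it (0.21), and in MB468res-R8 all 8 medians lie above 0.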

How the data were processed

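Per the labels and the study's methods, total RNA was extracted with a column kit, poly(A) RNA libraries were prepared with a kit that does not mark strand, spike-in RNAs were added, and single-end reads of 100 bp were aligned by the authors with HISAT2 2.1.0 (GRCh38/hg38, with the spike-in sequences added) and assigned to genes by featureCounts (Subread 1.5.3). The deposited counts are raw counts, and how reads with several positions were counted is not given in the sources used here. The authors' normalized table and their table of DESeq2 results, which holds their own fold changes and p-values, were not used.

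Tests were run with edgeR 4.0.16 under R 4.3.3 (filterByExpr with minimum count 10 and minimum total 15, TMM factors, robust quasi-likelihood fit with 1 mean for each of the 8 groups over 24 libraries, 16 residual degrees of freedom, two-sided tests), and genes with a Benjamini-Hochberg adjusted p under 0.05 over 14739 genes were called. The table held 26645 gene entries, of which 4 second rows of a repeated symbol were left out, and 92 spike-ins, which were kept out of library sizes and tests. CPM values use TMM effective library sizes. Depth limits the members under 10 CPM most, and the SE of each fold change carries counting error together with the spread between libraries. The members and all gene lists were chosen with earlier results of these data known, so lists are described by counts and medians without a test. Genes named in the text were those with the highest and lowest called fold changes of each comparison (up to 5 at 0 and 12 h and 3 at 0.5 and 2 h), the 5 highest and lowest levels, the 5 largest opposite changes at 12 h, and a fixed set of paralogs, their main forms, the stalk proteins, RPSA, RPS6, RPL5, and RPL11. Examples from the other lists were chosen after their values were seen.

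Alternatives were DESeq2's size factors, DESeq2's Wald test (version 1.42.0), spike-in totals as library sizes, TMM without ribosomal protein genes, all genes without the low-count filter, genes with 10 or more counts in each library, thinning to 11712531 counts, fits to the compared groups only, an adjusted p of 0.01, the replicate number as a block, and leaving out each library in turn. On data simulated for MB468 at 12 h with 14018 genes, 81% of 100 genes changed by 0.5 and 95% of 100 genes changed by 1 on the log2 scale were called, and 3.30% of calls were unchanged genes. In this simulation all genes shared 1 dispersion (0.00278), and only these genes were changed, as many up as down. In the data 70.6% of genes were called in this comparison, so these rates need not hold there. Gene positions, lengths, and copies of 100-base stretches were computed from GENCODE transcripts on hg38, whose release need not be the authors', and start windows come from RefSeq (GRCh38.p14). Values of some genes of these lists are not reported here.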

Additional observations from a re-analysis of the deposited data

Results flagged for a closer look

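The response of the 2 lines differed by the test of the line difference for 1 member at 0.5 h, 1 member at 2 h, and 76 members at 12 h. RPL26L1 was the member at both early times, with a difference of 0.24 at 0.5 h (adjusted p = 0.049 in edgeR's quasi-likelihood test, where 3.01% of all genes were called) and of -0.23 at 2 h (adjusted p = 0.0399, where 5.09% of all genes were called). The call at 0.5 h was lost in 11 of 12 fits that left out 1 library (adjusted p up to 0.197) and under every other alternative except TMM without ribosomal protein genes (from 0.0528 to 0.289), and by construction at the stricter threshold. The call at 2 h was lost in 7 of 12 such fits (up to 0.14), and with spike-in scaling the values were 0.49 and 0.13. At 12 h the differences were 1.60 for RPL7, 1.46 for RPL5, 1.13 for RPL4, 1.11 for RPL13A, and 1.06 for RPL3, and -0.27 for RPL26L1. RPL7L1, at 0.15 and just under the threshold, lost its call in 11 of 12 fits without 1 library (adjusted p up to 0.526).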

How the results depend on the processing

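Spike-in scaling moved the medians of the members most: to -0.55 at 0 h, to -0.22, -0.40, and -0.63 in MB468 at 0.5, 2, and 12 h, to 0.049 and -0.019 in MB468res-R8 at 0.5 and 2 h, and to 0.27, 0.38, and 0.82 for the line differences at 0.5, 2, and 12 h. It called 2 and 75 members in MB468 at 0.5 and 2 h, 0, 0, and 16 in MB468res-R8 at 0.5, 2, and 12 h, and 0 and 0 for the line differences at 0.5 and 2 h, turned RPL22 (-0.076) and RPL8 (-0.17) at 0 h, RPS25 (-0.060) at 0.5 h, RPL26L1 (-0.21), RPL11 (-0.27), and RPS29 (-0.29) in MB468 at 2 h, and the line difference of RPL26L1 at 2 h (0.13), and took the call from 31 of 124 named values, these included except RPS29, which was called lower (adjusted p = 0.0414). The spike-ins took 0.201 to 0.303% of counts, and their share also differed within groups, as in MB468res-R8 at 0.5 h (0.214, 0.277, and 0.288%). Whether equal amounts were added per cell was not tested. At least 10 counts in every library gave medians of 0.11 in MB468res-R8 at 12 h and 0.58 for the line difference at 12 h.

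Calls at 0.5 and 2 h were few and moved under many settings. MB468 at 2 h (4 members) had 2 after thinning and 2 at an adjusted p under 0.01, MB468res-R8 at 0.5 h (4) had 7 when only its own groups were fitted, and MB468res-R8 at 2 h (2) had 1 with DESeq2's size factors, 1 with its own groups only, and 0 at an adjusted p under 0.01. The line difference at 0.5 h (1) had 0 after thinning, with the compared groups only, and at the stricter threshold. With DESeq2's Wald test, DESeq2's size factors, the replicate block, no low-count filter, and a minimum of 10 counts in each library it also had 1, but this was RPS15, lower, in place of RPL26L1. The line difference at 2 h (1) had 0 after thinning, with the compared groups only, at the stricter threshold, and without a low-count filter. The replicate number as a block gave 1 member in MB468res-R8 at 2 h and 0 for the line difference at 2 h (RPL26L1, adjusted p = 0.0561). Its other counts were within 1.5 times those without the block. Averaged over all groups, same-numbered libraries showed no pairing (mean correlation of deviations -0.0193 over 6440 genes, 0.0102 for other numbers), and the numbers come from the library names. By comparison the mean ran from -0.143 (MB468res-R8 at 0 and 12 h) to 0.275 (MB468res-R8 at 0 and 2 h, 3 pairs from -0.034 to 0.464).

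Leaving out each library in turn gave 57 to 62 members at 0 h, 2 to 5, 3 to 5, and 73 to 76 in MB468 at 0.5, 2, and 12 h, 3 to 5, 0 to 2, and 38 to 47 in MB468res-R8, and 0 to 2, 0 to 1, and 72 to 76 for the line differences. The medians ran from -0.26 to -0.21 at 0 h, from -0.03 to 0.00, from -0.019 to 0.049, and from -0.42 to -0.39 in MB468, from -0.02 to 0.01, from 0.01 to 0.04, and from 0.11 to 0.14 in MB468res-R8, and from -0.01 to 0.03, from -0.026 to 0.046, and from 0.54 to 0.62 for the line differences. The lowest of these at 2 h, -0.026, was the line difference without MB468 replicate 2, the library with high RN7SK. With all libraries, the count and the median of MB468res-R8 at 12 h (52 higher, 1 lower, median 0.145) lay above the ranges given. So did the count at 0 h (3 higher, 62 lower), and the median of MB468 at 12 h (-0.423) lay just below its range. Of the 124 named values 99 kept their call without each library in turn.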
